A study of Mus musculus with 18 samples.

Results

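Alternative exons in genes of the cytoskeleton, of cell signalling and of intracellular membranes were followed in skeletal muscle of HSA-LR mice. The genes were taken from a list of 37 mouse genes known for alternative exons in striated muscle. Of these, 36 were among the 46725 genes of the count files, and the remaining gene, Plec, was not analysed here. The study compared WT mice, HSA-LR mice and HSA-LR mice given Pip6a-PMO, with 3 mice in each group and RNA from the gastrocnemius and the quadriceps of every mouse (18 libraries). All mice were on the FVB strain and 20 weeks old. HSA-LR mice carry a human skeletal actin transgene with an expanded CTG repeat, so that the repeat RNA is made in skeletal muscle fibers and not in other tissues. WT mice carried no transgene, and the labels give both WT and HSA-LR mice as untreated. Treated HSA-LR mice received Pip6a-PMO, an antisense morpholino against the CUG repeat joined to a cell-penetrating peptide. Injections were intravenous, of 160 µL of Pip6a-PMO or of saline. The dose given to the sequenced mice was not stated in the sources used here.

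Muscle fibers build many of their structural proteins in fetal and adult versions that differ by a few short exons. MBNL proteins promote the adult choice at a large share of these exons, and RNA with expanded CUG repeats binds MBNL proteins and keeps them in nuclear foci. The listed genes encode proteins that cap, bundle or anchor actin filaments, link them to microtubules and membranes, or pass signals from adhesion sites.

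The authors counted read pairs over exon bins, the pieces that result when exons are split at every annotated exon boundary. The listed genes held 1998 bins. A bin's share is its count as a percentage of the counts of all bins of its gene, so a share below 1% is usual in a gene with many bins. Bin use was tested with edgeR (diffSpliceDGE), in which the log2 change of a bin is set against the average of its gene. A bin was called at a Benjamini-Hochberg adjusted P (adjusted P) under 0.1 over all bins of all genes tested. The return was calculated as the part of the difference between HSA-LR and WT mean shares that was gone in treated mice, where 100% stands for the WT mean. It is a description with no test. Coordinates are on GRCm38 with exons from GENCODE M21.

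Library totals ran from 98916844 to 143135976 counts. Genes of skeletal fibers were high in all 18 libraries, at 142000 to 196000 CPM (counts scaled to the same library size) summed over 6 genes. In the gastrocnemius of treated mouse 3, coverage of long transcripts leaned further to the 3' end, with a log2 ratio of 5' to 3' coverage of -2.23 against -1.88 to -1.71 in the other 17 libraries. By the labels, WT mouse 2 was a female and WT mouse 3 a male. The 4 Y-linked genes checked summed to 154 and 181 CPM in the muscles of WT mouse 2, and to 1.15 and 1.43 CPM in those of WT mouse 3, so the libraries went against these labels. Below, counts that moved and the gene calls and lead bin calls that changed between HSA-LR and WT mice are given without these mice or libraries. In the libraries of all mice other than WT mouse 3, the Y-linked sums ran from 119 to 187 CPM. WT mouse 3 was thus the only mouse with low Y-linked counts, and every HSA-LR and treated mouse had high Y-linked counts. The part of sex in the differences from WT mice was not tested.

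Exons that switched in both muscles are shown first, since the return under treatment was followed mainly in them. The rule for printing was a coding internal exon whose bin was called in both muscles, and 8 exons met it (753 bases, read from GENCODE M21 transcripts, 5' to 3'). Capitals mark TGCT and TGCC, or else CGCT and CGCC, which are the 4-letter forms of the element that MBNL proteins bind, searched on the sense strand only, with overlapping matches joined. A match is a description of the letters and no sign of binding, and the introns beside the exons were not analysed here.
Nfix bin 18, chr8:84723728-84723850, minus strand: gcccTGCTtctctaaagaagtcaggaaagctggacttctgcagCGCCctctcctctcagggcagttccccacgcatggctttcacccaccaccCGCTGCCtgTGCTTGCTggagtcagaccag
Rapgef1 bin 19, chr2:29720643-29720738, plus strand: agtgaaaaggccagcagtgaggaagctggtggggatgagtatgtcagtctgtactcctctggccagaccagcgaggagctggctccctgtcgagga
Trim55 bin 11, chr3:19674254-19674541, plus strand: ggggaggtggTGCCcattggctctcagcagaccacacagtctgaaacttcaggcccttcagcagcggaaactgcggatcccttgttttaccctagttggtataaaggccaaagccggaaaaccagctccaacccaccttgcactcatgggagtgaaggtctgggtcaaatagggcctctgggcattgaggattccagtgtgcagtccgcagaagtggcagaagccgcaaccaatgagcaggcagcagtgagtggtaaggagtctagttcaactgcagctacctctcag
Clasp1 bin 45, chr1:118512175-118512222, plus strand: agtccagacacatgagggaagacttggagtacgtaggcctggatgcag
Clasp1 bin 60, chr1:118541675-118541698, plus strand: ctgttaggagaCGCCaggagcaag
Mapt bin 12, chr11:104289908-104289994, plus strand: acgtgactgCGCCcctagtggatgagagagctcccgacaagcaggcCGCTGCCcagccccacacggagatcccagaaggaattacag
Opa1 bin 9, chr16:29588823-29588876, plus strand: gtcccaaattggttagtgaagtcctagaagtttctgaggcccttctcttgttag
Vps39 bin 40, chr2:120346857-120346889, minus strand: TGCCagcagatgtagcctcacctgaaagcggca

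All 8 exons had a length divisible by 3, from 24 to 288 bases, so that each adds or removes whole codons. Among 86136 whole coding internal exons of the annotation, 41.3% had such a length. Of the 36 bins called in the gastrocnemius that are whole coding internal exons, 22 did. The motif was in 5 of the 8 exons and in 75.5% of all 86136. The share of other exons of like length that held it was 82.0% for the Nfix exon, 64.1% for Mapt, 94.8% for Trim55, 23.8% for Clasp1 bin 60 and 30.8% for Vps39. It occurred 6 times in the Nfix exon, where 2.84% of the 704 exons of that length held as many, and 3 times in the Mapt exon, where 11.9% of 616 exons did. It was absent from the Rapgef1 exon, in a length class of which 70.6% held it, from the Opa1 exon (42.7%) and from Clasp1 bin 45 (39.0%).

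In the gastrocnemius, 58 of the 1458 tested bins of the listed genes were called between HSA-LR and WT mice (3.98%, against 0.819% of all 172719 bins). They lay in 17 of the 36 genes (47.2%, against 4.93% of all genes with at least 1 called bin), and 45 were used more and 13 less in HSA-LR mice (0.591% and 0.228% of all bins). The listed genes had 40.5 tested bins each on average and all genes 14.9, so they had more chances of a call. The list was also chosen with earlier results of these data known. An excess over all genes, in either muscle, is thus set in part by that choice and is no test. In the quadriceps, 11 of 1456 bins in 9 genes were called (0.755%, against 0.284% of all 172858 bins; 25.0% of genes against 2.33%), 4 used more and 7 less (0.165% and 0.119% of all bins). Every bin called in the quadriceps was also called in the gastrocnemius, in the same direction. Median log2 changes over the tested bins were 0.071 in the gastrocnemius and 0.021 in the quadriceps, against 0.019 and 0.006 over all bins.

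With 1 mouse left out at a time, the gastrocnemius count ran from 24 to 76. It was 53 without WT mouse 2 and 24 without WT mouse 3, the mice whose libraries went against their labels. WT mouse 3 was also the only mouse with low Y-linked counts. Leaving out WT mouse 1 gave 34 called bins. The counts with HSA-LR mice left out were 33 (mouse 1), 26 (mouse 2) and 25 (mouse 3). Called bins over all genes also fell, from 1414 with all mice to 857, 1159 and 833 without WT mouse 1, 2 or 3. Without HSA-LR mouse 1, 2 or 3 they numbered 954, 699 and 683. The bins behind the loss in the listed genes were not spread evenly over them, as the following paragraphs show. In the quadriceps the count ran from 8 to 13, and over all genes from 329 to 506, against 491 with all mice. In all, 16 of the 58 gastrocnemius bins and 8 of the 11 quadriceps bins were called in each of the 9 fits that left out a mouse.

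**Figure D1:**
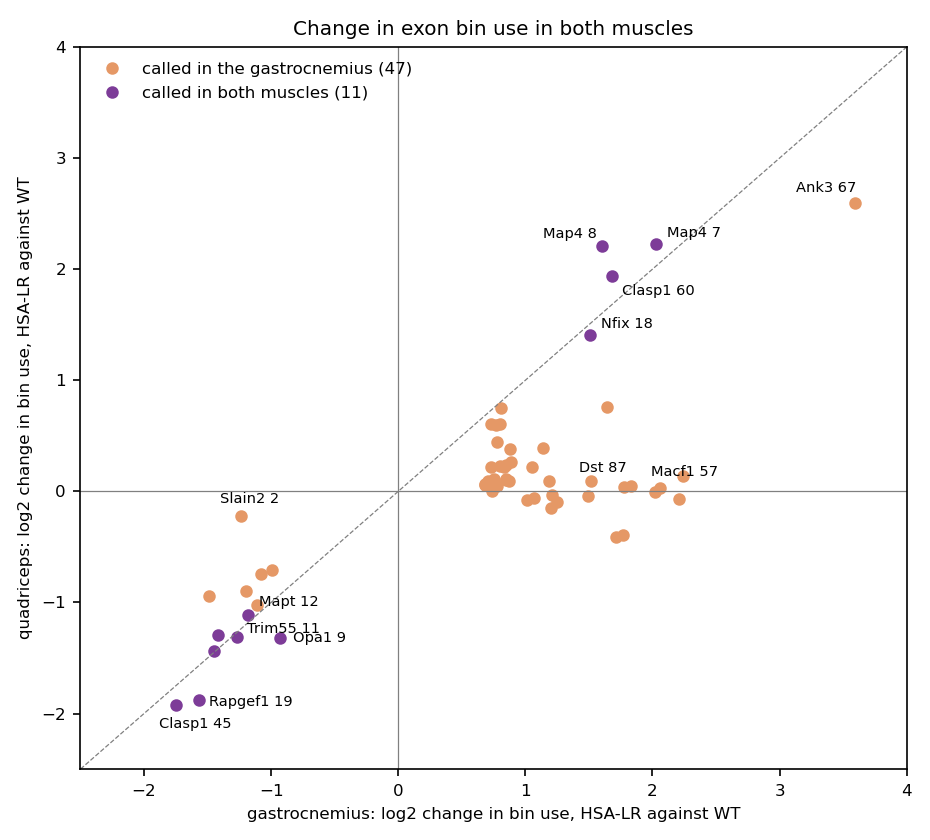
Log2 change in bin use between HSA-LR and WT mice in the gastrocnemius (x axis) and the quadriceps (y axis) for the 58 bins called in the gastrocnemius; points stand for bins, and the dashed line marks equal change. The 11 bins called in both muscles lie near that line, and many of the 47 called in the gastrocnemius only lie near 0 on the quadriceps axis.

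Nfix, a transcription factor of the nuclear factor I family that drives the fetal program of muscle, had a 123-base exon (bin 18) used more in HSA-LR muscle. Its share of the gene in the gastrocnemius was 1.27%, 1.16% and 1.28% in the 3 WT mice, 3.4%, 3.71% and 3.51% in HSA-LR mice and 1.62%, 1.42% and 1.20% in treated mice. HSA-LR mice thus stood well above both other groups, which overlapped each other. The change between HSA-LR and WT mice was 1.51 on the log2 scale (edgeR adjusted P = 2.85e-12), and that between treated and HSA-LR mice was -1.31 (edgeR adjusted P = 1.21e-08). Mean shares in the quadriceps were 1.32% ± 0.098 in WT, 3.51% ± 0.0728 in HSA-LR and 1.54% ± 0.177 in treated mice (SD, n = 3), with a log2 change of 1.41 (edgeR adjusted P = 2.67e-07). The return was 92.4% ± 8.96 in the gastrocnemius and 90.0% ± 8.07 in the quadriceps (SD over 3 treated mice).

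Rapgef1 encodes an exchange factor that switches on Rap GTPases at adhesion sites, and its 96-base exon (bin 19) was used less in HSA-LR mice. The exon is in 1 of the 7 annotated transcripts of the gene. Gastrocnemius shares were 1.24%, 1.30% and 1.16% in WT mice, 0.465%, 0.296% and 0.477% in HSA-LR mice and 1.20%, 1.26% and 1.01% in treated mice. Every HSA-LR mouse lay below every WT and treated mouse. Log2 changes between HSA-LR and WT mice were -1.57 in the gastrocnemius and -1.88 in the quadriceps (edgeR adjusted P = 4.71e-12 and 3.80e-13). In the quadriceps, the share was 1.12% ± 0.0852 in WT, 0.305% ± 0.0339 in HSA-LR and 1.23% ± 0.0911 in treated mice (SD, n = 3). The return was 90.6% ± 15.4 and 113% ± 11.1.

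Lrrfip2, an adaptor of Wnt and Toll-like receptor signalling, lost use of bin 18. The numbering of bins in this gene does not match the annotation used here, so the bin has no position or sequence. WT mice held 1.62%, 1.38% and 1.56% of the gene's gastrocnemius counts in this bin, HSA-LR mice 0.638%, 0.438% and 0.581%, and treated mice 1.45%, 1.61% and 1.37%. Treated and WT mice shared a range that no HSA-LR mouse reached. The log2 change between HSA-LR and WT mice was -1.45 in the gastrocnemius (edgeR adjusted P = 8.74e-09) and -1.44 in the quadriceps (edgeR adjusted P = 9.44e-07). Returns of 95.6% ± 12.9 and 105% ± 25.2 were measured.

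Trim55, a muscle RING-finger ubiquitin ligase that binds titin and microtubules, had a 288-base exon (bin 11) with the largest share among the lead bins. In the gastrocnemius it held 10.6%, 10.5% and 9.89% of the gene's counts in WT mice, 4.59%, 3.39% and 4.85% in HSA-LR mice and 9.40%, 9.89% and 10.8% in treated mice. Quadriceps shares were 10.4%, 10.1% and 10.5%, then 3.89%, 4.06% and 4.47%, then 10.4%, 10.2% and 9.88% in the same order. The highest HSA-LR mouse of either muscle, at 4.85%, was far below the lowest of the other mice, at 9.40%. Log2 changes were -1.27 and -1.31 (edgeR adjusted P = 3.92e-08 and 4.68e-06), and returns were 95.3% ± 11.8 and 97.2% ± 4.35.

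Clasp1 encodes a protein that stabilizes growing microtubule ends, and 5 of its bins were called in the gastrocnemius, in both directions. The 48-base exon (bin 45) was used less: its shares were 0.811%, 0.812% and 0.611% in WT mice, 0.282%, 0.15% and 0.230% in HSA-LR mice and 0.735%, 0.733% and 0.661% in treated mice. The 24-base exon (bin 60) was used more: 0.257%, 0.360% and 0.182% in WT mice, 0.867%, 0.876% and 0.845% in HSA-LR mice and 0.390%, 0.350% and 0.283% in treated mice. So the same HSA-LR libraries were low in the former exon and high in the latter, with no overlap with WT mice in either. Log2 changes were -1.75 and 1.68 in the gastrocnemius (edgeR adjusted P = 3.59e-07 and 8.59e-07), and -1.92 and 1.94 in the quadriceps (edgeR adjusted P = 9.43e-04 and 3.16e-03). Bin 45 returned by 93.3% ± 8.0 in the gastrocnemius and 120% ± 21 in the quadriceps, and bin 60 by 87.5% ± 9.07 and 63.8% ± 10.8. For bin 60 in the quadriceps, the treated mice (0.445%, 0.353% and 0.337%) lay between WT mice (0.146%, 0.215% and 0.192%) and HSA-LR mice (0.620%, 0.857% and 0.683%) with no overlap on either side. Neither of those differences was called for treated mice (edgeR adjusted P = 1.0 against HSA-LR and against WT mice). Without HSA-LR mouse 2, bin 60 was no longer called between HSA-LR and WT quadriceps (log2 change 1.79, edgeR adjusted P = 0.108).

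The other 3 called Clasp1 bins were called in the gastrocnemius only. A noncoding last exon of 3178 bases (bin 99) fell by 1.20 on the log2 scale (edgeR adjusted P = 3.95e-06), and it held 2.56%, 2.04% and 2.13% of the gene in WT mice against 0.956%, 1.03% and 0.939% in HSA-LR mice. Bin 55, of 63 bases, rose (log2 change 1.64, edgeR adjusted P = 0.0001), and bin 52, of 101 bases, fell (log2 change -1.49, edgeR adjusted P = 0.0235). In the quadriceps these bins changed by -0.90, 0.76 and -0.94, with an edgeR adjusted P of 0.368 for bin 99 and of 1.0 for each of the others.

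Map4, the main microtubule-associated protein outside neurons, had an alternative end used more in HSA-LR mice. Bin 8 is a noncoding stretch of 2450 bases in a last exon of 1 annotated transcript, and bin 7 is the 544 bases before it. Bin 8 held 0.0458%, 0.0438% and 0.0825% of the gene in the gastrocnemius of WT mice, 0.179%, 0.194% and 0.142% in HSA-LR mice and 0.0627%, 0.0391% and 0.0638% in treated mice. The quadriceps showed the same order, with 0.0499%, 0.0557% and 0.0545%, then 0.287%, 0.205% and 0.258%, then 0.0456%, 0.0441% and 0.0554%. HSA-LR mice were above all others in both muscles, at a level that stayed a small part of the gene. Log2 changes of bin 8 were 1.60 and 2.21 (edgeR adjusted P = 2.38e-07 and 3.35e-07), those of bin 7 were 2.03 and 2.23 (edgeR adjusted P = 5.14e-06 and 3.04e-03), and bin 8 returned by 102% ± 12.2 and 103% ± 3.14. A first exon of 1471 bases (bin 18) was called in the gastrocnemius only, with log2 changes of 0.73 and 0.61 (edgeR adjusted P = 0.0227 and 1.0) and a gastrocnemius return of 96.2% ± 3.09.

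Mapt encodes tau, a microtubule-associated protein best known from neurons, and 4 of its bins fell in HSA-LR gastrocnemius. They form 3 coding exons: a pair of 87-base exons (bins 11 and 12), and an exon cut by annotation into bins of 101 and 97 bases (bins 18 and 19). Bin 18, which had the smallest P, held 2.42%, 2.62% and 2.16% of the gene in WT mice, 1.32%, 0.778% and 1.24% in HSA-LR mice and 2.30%, 2.49% and 1.67% in treated mice. Groups of WT and HSA-LR mice did not overlap. Its log2 change was -1.08 in the gastrocnemius (edgeR adjusted P = 4.04e-03) and -0.74 in the quadriceps (edgeR adjusted P = 0.322). limma voom and the DEXSeq model called bin 18 in the quadriceps too (limma adjusted P = 2.73e-03, DESeq2 adjusted P = 0.0181). Bin 12 was the only Mapt bin called in both muscles, with log2 changes of -1.18 and -1.11 (edgeR adjusted P = 0.0349 and 0.0881), and it was called in 4 of the 9 fits that left out a mouse in the gastrocnemius and in 2 of 9 in the quadriceps. Without HSA-LR mouse 2, bin 18 was no longer called in the gastrocnemius (log2 change -0.90, edgeR adjusted P = 0.158).

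Vps39, a subunit of the complex that tethers late endosomes to lysosomes, had a 33-base exon (bin 40) used less in HSA-LR mice. Gastrocnemius shares were 1.64%, 1.53% and 1.0% in WT mice, 0.418%, 0.602% and 0.543% in HSA-LR mice and 1.26%, 1.47% and 1.44% in treated mice. WT mouse 3 was lowest of its group and still above each HSA-LR mouse. Log2 changes were -1.42 and -1.29 (edgeR adjusted P = 6.48e-04 and 0.0314), with returns of 99.9% ± 13.1 and 120% ± 40.3. The quadriceps call was lost without WT mouse 3, HSA-LR mouse 1 or HSA-LR mouse 2 (log2 changes of -1.30, -1.35 and -1.10; edgeR adjusted P = 0.109, 0.114 and 0.621).

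Opa1, the GTPase that fuses mitochondrial inner membranes, had a 54-base exon (bin 9) used less. In the quadriceps it held 0.592%, 0.734% and 0.697% of the gene in WT mice, 0.255%, 0.281% and 0.272% in HSA-LR mice and 0.829%, 0.917% and 0.640% in treated mice. Gastrocnemius shares were 0.528%, 0.649% and 0.649%, then 0.349%, 0.232% and 0.382%, then 0.532%, 0.583% and 0.441%. HSA-LR mice were lowest in both muscles, by a wider margin in the quadriceps. Log2 changes were -0.93 (edgeR adjusted P = 0.0374) and -1.32 (edgeR adjusted P = 5.57e-04), and the exon returned by 68.6% ± 25.0 and 130% ± 34.9. Treated and HSA-LR mice differed in the quadriceps (log2 change 1.57, edgeR adjusted P = 6.04e-06), and the gastrocnemius value was 0.72 (edgeR adjusted P = 0.627). The gastrocnemius call was lost without WT mouse 2 or 3 (log2 change -0.88 in both cases; edgeR adjusted P = 0.233 and 0.196) or without HSA-LR mouse 1 or 2 (-0.99 and -0.74; edgeR adjusted P = 0.138 and 0.780).

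Ank3 encodes ankyrin-G, which anchors channels to spectrin, and its bin 67 had the highest log2 change of the listed genes (3.59 in the gastrocnemius, edgeR adjusted P = 2.12e-05). The bin cannot be placed on the annotation used here. It held 0.0168%, 0.0210% and 0.00658% of the gene in WT mice, 0.202%, 0.219% and 0.147% in HSA-LR mice and 0.0107%, 0.0318% and 0.0118% in treated mice. These are mean counts of 2.0, 46.0 and 3.0 per library. Quadriceps means were 2.67, 30.3 and 6.67 counts, and the log2 change of 2.60 was not called (edgeR adjusted P = 0.295) although the groups did not overlap. With the library's 5' to 3' coverage as a covariate it was called (edgeR adjusted P = 0.0131), and in the DEXSeq model too (DESeq2 adjusted P = 0.0646). The gastrocnemius return was 98.1% ± 6.81.

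**Figure D2:**
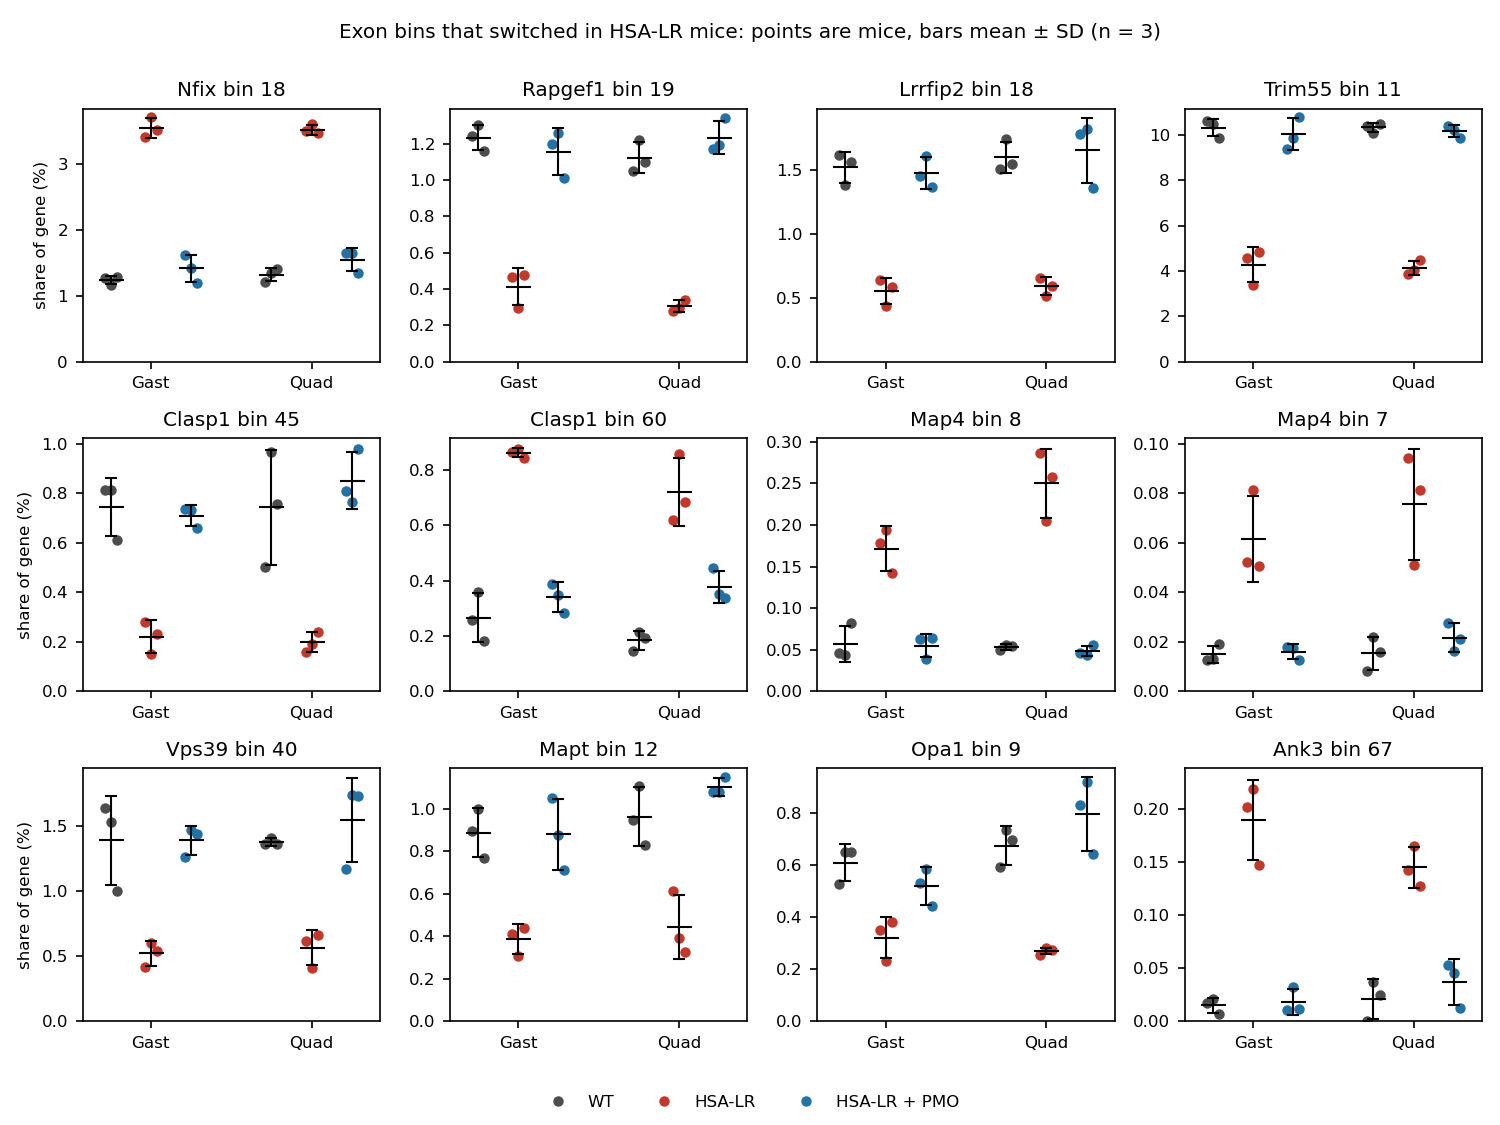
Share of the gene (%, y axis from 0) of 12 exon bins that switched in HSA-LR mice, for the gastrocnemius (Gast) and the quadriceps (Quad); points stand for mice, and bars for mean ± SD (n = 3) of WT, HSA-LR and treated HSA-LR mice. HSA-LR mice lie apart from WT mice in every panel and both muscles, and treated mice overlap WT mice except for Clasp1 bin 60 in the quadriceps.

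The remaining gastrocnemius calls were runs of neighboring or scattered bins in large genes. They were grouped after their values were seen, as the called bins of Dst, Macf1, Svil, Sptan1, Limch1 and Ank1 and the called Map4 bins other than 7, 8 and 18 (38 bins in all). All 38 were used more in HSA-LR gastrocnemius, and none was called in the quadriceps. Dst encodes a spectraplakin that links actin filaments, intermediate filaments and microtubules, and 10 of its bins between numbers 84 and 94 rose, by 1.07 to 2.24 on the log2 scale.

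Bin 87 of Dst, a coding exon of 1472 bases at chr1:34227775-34229246, led this run. Its gastrocnemius shares were 0.285%, 0.288% and 0.0875% in WT mice, 0.614%, 0.695% and 0.963% in HSA-LR mice and 0.208%, 0.567% and 0.439% in treated mice (log2 change between HSA-LR and WT mice 1.78, edgeR adjusted P = 1.09e-08). The same exon held in the quadriceps 0.104%, 1.59% and 0.404% in WT mice, 0.0967%, 1.51% and 0.633% in HSA-LR mice and 1.71%, 2.25% and 0.720% in treated mice. Each group of quadriceps held high and low mice, and the groups overlapped over most of their range. The log2 change there was 0.04 (edgeR adjusted P = 1.0).

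Macf1, the other spectraplakin of the list, had its lead bin in an exon of the same length, 1472 bases (bin 57, chr4:123431998-123433469). The gastrocnemius shares were 0.118%, 0.141% and 0.108% in WT mice, 0.570%, 0.353% and 0.565% in HSA-LR mice and 0.172%, 0.532% and 0.14% in treated mice. Treated mouse 2 was as high as HSA-LR mice, and the other treated mice were near WT mice. Its log2 change was 2.02 (edgeR adjusted P = 1.71e-04), on mean counts of 7.67 in WT and 42.0 in HSA-LR mice. In the quadriceps the shares were 0.0620%, 0.968% and 0.218% in WT mice, 0.0776%, 0.804% and 0.309% in HSA-LR mice and 1.19%, 1.06% and 0.540% in treated mice. The 8 Map4 bins of the runs, numbers 4 to 15, rose by 0.68 to 1.01 on the log2 scale in the gastrocnemius.

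The order of mice was much the same in the runs of Dst, Macf1, Map4, Svil and Sptan1, and differed in those of Ank1 and Limch1. Ank1 bin 57, for one, was highest in the quadriceps of HSA-LR mouse 1 (0.407%) and lowest in that of WT mouse 3 (0.197%). In the quadriceps, WT mouse 2, HSA-LR mouse 2 and treated mice 1 and 2 were the 4 highest libraries for 28 of the 38 bins, and WT mouse 1 and HSA-LR mouse 1 were the 2 lowest for 29. The Ank1 and Limch1 bins were not among those 28. Those 4 libraries had the highest 5' to 3' coverage of the quadriceps (-1.75, -1.75, -1.72 and -1.71), and the pair of low libraries the lowest (-1.88 and -1.84). In the gastrocnemius, coverage was -1.79, -1.80 and -1.77 in HSA-LR mice and -1.88, -1.80 and -1.85 in WT mice, so that each HSA-LR mouse was at or above each WT mouse.

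In a further fit, chosen after the data were seen, coverage was a covariate and the gastrocnemius library of treated mouse 3 was left out. Of the 38 bins, 1 was still called (Dst bin 87, log2 change 1.12, edgeR adjusted P = 3.08e-03), and the median log2 change of the 38 was 0.69 against 0.88 before. Over all genes this fit called 570 bins, against 1414 before. Macf1 bin 57 was at 1.26 (edgeR adjusted P = 1.0). All 11 bins that had been called in both muscles were still called. With coverage as a covariate and all 9 libraries kept, 55 of the 58 bins were called. Without WT mouse 3 the runs kept 6 of their 38 calls, and without HSA-LR mouse 3 they kept 8, while at least 9 of the 11 bins called in both muscles were called whichever mouse was left out. The 11 bins were picked by their calls, and the runs were grouped after their values were seen. The contrast between the sets in these fits of the same libraries is thus set in part by that choice, and is no test.

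**Figure D3:**
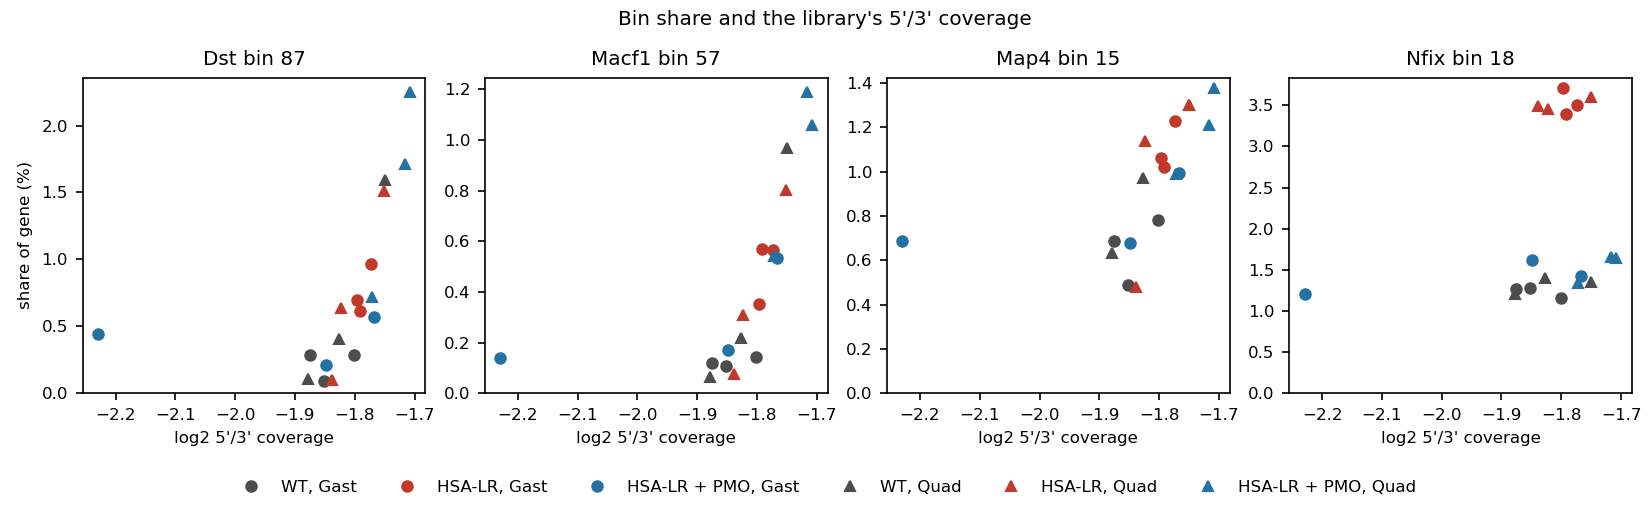
Share of the gene (%, y axis from 0) of Dst bin 87, Macf1 bin 57, Map4 bin 15 and Nfix bin 18 against the log2 ratio of 5' to 3' coverage of the library (x axis); points stand for the 18 libraries, with circles for the gastrocnemius and triangles for the quadriceps. Apart from the library at -2.23, high shares of Dst, Macf1 and Map4 lie at high coverage in all 3 groups, while for the Nfix exon all HSA-LR libraries lie above all WT and treated libraries.

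Marker genes of other cells also varied between libraries. Summed CPM of 4 slow fiber genes reached 9160 in the gastrocnemius of treated mouse 1, against 1230 to 3660 in the other gastrocnemius libraries, and in the quadriceps it ran from 14.6 to 67 in HSA-LR, 73.8 to 345 in WT and 27.6 to 1190 in treated mice. Macrophage genes (3 genes) were at 32.3 to 35.5 CPM in HSA-LR gastrocnemius against 22.9 to 27.1 in WT and 14.5 to 19.6 in treated mice, and at 37.4 to 44.5 CPM in HSA-LR quadriceps against 12.9 to 22.3 and 13.8 to 19.7. Adipocyte genes (4 genes) reached 1250, 1030 and 1410 CPM in the quadriceps of WT mouse 1 and HSA-LR mice 1 and 2, and lay between 122 and 484 CPM in the other quadriceps. In HSA-LR against WT quadriceps, fibroblast genes (2 genes found) were higher, at 430 to 517 against 277 to 361 CPM. Genes of Schwann cells and nerve (3 genes) were lower, at 25 to 41 against 54 to 72.2 CPM, as were those of endothelium (2 genes, 93 to 115 against 123 to 167 CPM) and of smooth muscle (2 genes, 70.3 to 83.4 against 87.2 to 121 CPM), with no overlap in these lists. Treated quadriceps had 320 to 436 CPM of fibroblast, 34.9 to 62.6 of nerve, 92.9 to 145 of endothelium and 74.9 to 93.9 of smooth muscle genes. No marker of these lists was at 0 in any library. Their part in the results on bins was not tested. In whole muscle, fewer cells of a type and less RNA per cell cannot be told apart.

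**Figure D4:**
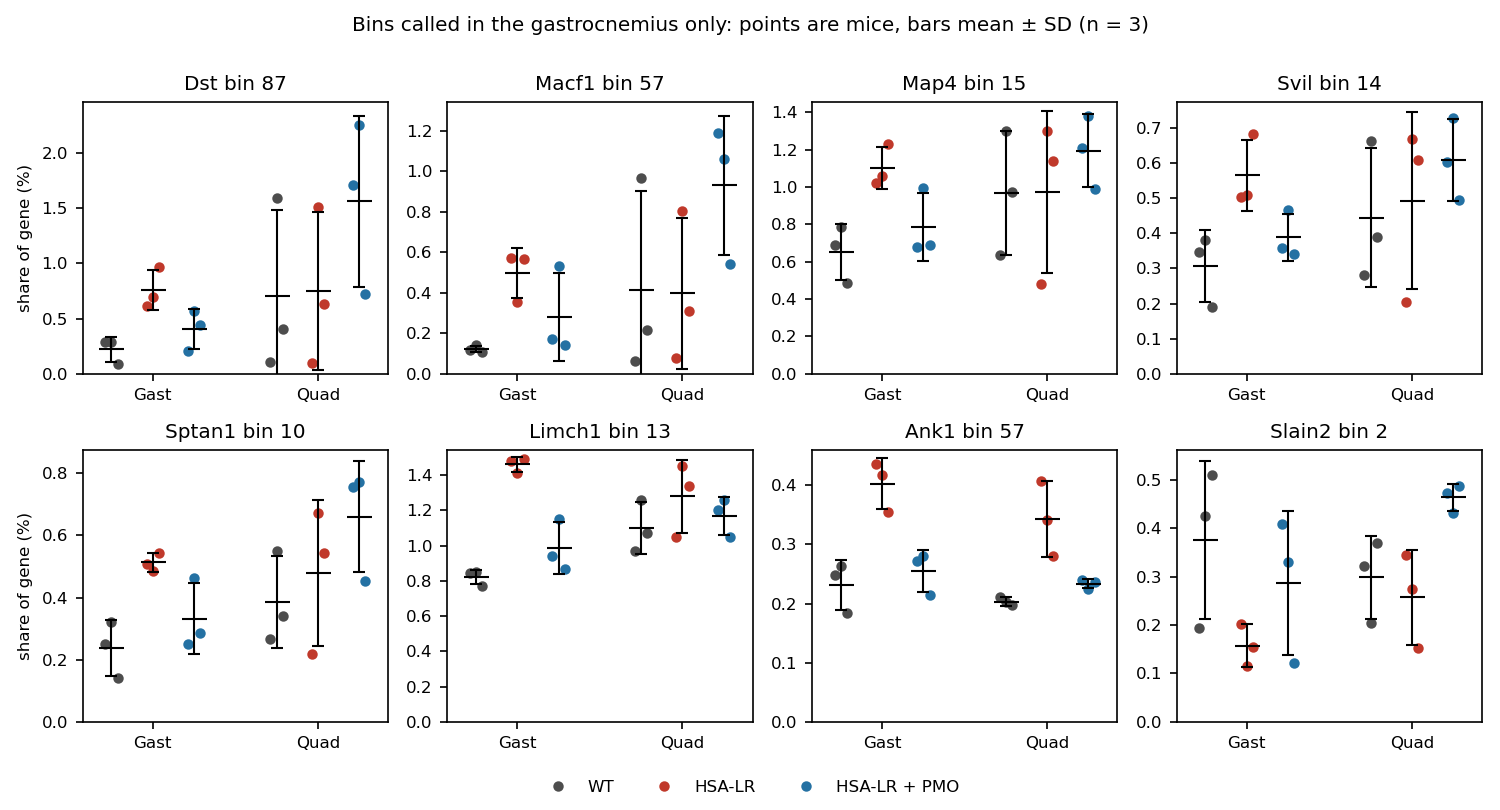
Share of the gene (%, y axis from 0) of 8 exon bins called in the gastrocnemius only, for the gastrocnemius (Gast) and the quadriceps (Quad); points stand for mice, and bars for mean ± SD (n = 3) of WT, HSA-LR and treated HSA-LR mice. In the quadriceps the mice of each group spread widely for Dst, Macf1, Map4, Svil and Sptan1, and the groups overlap.

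Among the other runs, Ank1, whose short products anchor the sarcoplasmic reticulum to the sarcomere, came closest to the same change in both muscles. Its bin 57 (375 bases, coding) held 0.249%, 0.263% and 0.184% of the gene in WT gastrocnemius, 0.436%, 0.418% and 0.354% in HSA-LR mice and 0.272%, 0.280% and 0.215% in treated mice, with a log2 change of 0.81 (edgeR adjusted P = 0.0110). In the quadriceps it was 0.211%, 0.202% and 0.197%, then 0.407%, 0.342% and 0.280%, then 0.240%, 0.225% and 0.236%, with a log2 change of 0.75 (edgeR adjusted P = 0.212). HSA-LR mice were above WT mice in both muscles, although edgeR did not call the quadriceps difference. It was called there in the DEXSeq model (DESeq2 adjusted P = 1.35e-03) and by edgeR without HSA-LR mouse 3 (log2 change 0.89, edgeR adjusted P = 0.0731). Total Ank1 counts fell in HSA-LR gastrocnemius, as given with the gene counts, and a bin's share is relative to that total. The gastrocnemius call was lost without WT mouse 3 or HSA-LR mouse 1 or 2 (edgeR adjusted P = 0.267, 0.170 and 0.151), and by limma voom it was not called (log2 change 0.5, limma adjusted P = 0.133).

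Svil, Sptan1 and Limch1 act at actin filaments and the membrane skeleton, and their lead bins changed less than that of Ank1 in the quadriceps only. Limch1 bin 13 was 0.822% ± 0.0422 in WT, 1.46% ± 0.0406 in HSA-LR and 0.985% ± 0.147 in treated gastrocnemius (SD, n = 3; log2 change 0.83, edgeR adjusted P = 0.0178). Sptan1 bin 10 was 0.238% ± 0.0911, 0.513% ± 0.0294 and 0.333% ± 0.114 (log2 change 1.14, edgeR adjusted P = 0.0546), and Svil bin 9 was 0.314% ± 0.125, 0.597% ± 0.0626 and 0.368% ± 0.0823 (log2 change 0.89, edgeR adjusted P = 0.0325). Each of these calls was lost in at least 4 of the 9 fits that left out a mouse, WT mouse 3 among them. The log2 changes in the quadriceps were 0.22, 0.39 and 0.26 (edgeR adjusted P = 1.0 for each).

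Slain2, which promotes microtubule growth, had a 47-base noncoding first exon (bin 2) that fell in HSA-LR gastrocnemius (log2 change -1.24, edgeR adjusted P = 8.79e-03). The shares of 0.194%, 0.425% and 0.509% in WT mice and 0.203%, 0.115% and 0.155% in HSA-LR mice overlapped, through WT mouse 1. It was the only lead bin of the 17 genes whose WT and HSA-LR mice overlapped in the gastrocnemius. The other 16 lead bins gave an exact two-sided permutation P of 0.1, the smallest that 3 mice against 3 allow. Slain2 bin 2 was not called without WT mouse 2 or 3 or HSA-LR mouse 2 or 3 (edgeR adjusted P = 0.135, 0.439, 0.275 and 0.124), nor in the DEXSeq model (DESeq2 adjusted P = 0.316).

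Between treated and HSA-LR mice, 20 bins of 11 listed genes were called in the gastrocnemius (1.37%, against 0.309% of all bins) and 12 bins of 9 genes in the quadriceps (0.824%, against 0.168%). This comparison shares the HSA-LR mice with the one against WT mice, so the values are given side by side and their agreement is no result. Of the 58 bins called in HSA-LR against WT gastrocnemius, 19 were called here, each in the opposite direction. Of the 11 quadriceps bins, 10 were, each in the opposite direction, and Clasp1 bin 60 was the exception. The gastrocnemius count of 20 fell to 13 without WT mouse 1 or 2, to 11, 10 and 12 with HSA-LR mice 1, 2 and 3 left out in turn, and to 12 without treated mouse 1, and rose to 32 without treated mouse 2, and the quadriceps count of 12 was 7 without treated mouse 2. Over all genes the counts ran from 270 to 716 and from 158 to 372 over the mice left out, against 533 and 291 with all mice. Among the 38 bins of the runs, 3 were called (Dst bin 87 and Ank1 bins 41 and 42). The 11 bins called in both muscles had returns of 68.6% to 102% in the gastrocnemius and of 63.8% to 130% in the quadriceps, and the 38 bins of the runs had returns of 42.7% to 101% in the gastrocnemius.

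Between treated and WT mice, no bin of the listed genes was called by edgeR in the gastrocnemius (0.0654% of all bins) or in the quadriceps (0.0353% of all bins). At an unadjusted P under 0.05 there were 26 of 1458 bins in the gastrocnemius and 9 of 1456 in the quadriceps. Over all genes these were 1696 of 172719 and 1237 of 172858 bins. The limma voom fit and the DEXSeq model called 0 listed bins as well, against 91 and 95, and 84 and 72, over all genes. Leaving out WT mouse 2 gave 6 called bins in the quadriceps (Dst bins 83 to 87 and Macf1 bin 57), all used more in treated mice, by 2.60 to 4.60 on the log2 scale. Without treated mouse 1, Dst bins 86 and 87 were called in the gastrocnemius (log2 changes of 1.69 and 1.22, edgeR adjusted P = 0.0741 and 0.0188). With the replicate number as a block they were called in the quadriceps (1.83 and 1.86, edgeR adjusted P = 0.091 and 0.0402). With coverage as a covariate the quadriceps values were -0.71 for Dst bin 87 and -0.48 for Macf1 bin 57 (edgeR adjusted P = 1.0 for each). Map4 bin 41 was lower in treated gastrocnemius with that covariate (-1.14, edgeR adjusted P = 0.0289) and without treated mouse 3 (-1.21, edgeR adjusted P = 0.0874). Smyd1 bin 15, a bin of few reads, was higher in treated quadriceps by 4.21 to 6.17 on the log2 scale in 7 alternative fits that called it: without WT mouse 1, HSA-LR mouse 1, 2 or 3 or treated mouse 3, with a minimum count of 3, and with no filter (edgeR adjusted P = 0.0446, 0.0232, 0.0249, 0.0187, 0.00234, 0.0281 and 0.0446). Treated mice averaged 1.56% ± 0.776 for Dst bin 87 in the quadriceps against 0.701% ± 0.788 in WT mice (SD, n = 3), and the mice overlapped.

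No bin had a change in HSA-LR mice that was called as different between the muscles. The interaction of muscle and HSA-LR against WT called 0 of 1486 bins (edgeR, against 0.0166% of all 180522 bins). At an unadjusted P under 0.05 there were 26, against 1406 over all genes, and limma voom called 0, against 10. For treated against HSA-LR mice, the interaction called 0 bins (0.0155% of all bins). At an unadjusted P under 0.05 there were 58, against 2810 over all genes, and limma voom called 1, against 79. Gastrocnemius and quadriceps come from the same mice. With the mouse as a block, 3 bins were called in this latter interaction, Dst bins 86 and 87 and Macf1 bin 57, against 123 over all genes.

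Between quadriceps and gastrocnemius of WT mice, 3 bins were called (edgeR; 0.202%, against 0.0432% of all bins). Dst bins 86 and 87 were used more in the quadriceps, by 2.54 and 1.77 on the log2 scale (edgeR adjusted P = 0.0154 and 0.0387), and with the mouse as a block neither was called (edgeR adjusted P = 0.287 and 0.625). The last bin of this set lies in Smyd1, a histone methyltransferase and myosin chaperone of striated muscle. Smyd1 bin 15, part of a last exon of 211 bases, was used less (log2 change -4.16, edgeR adjusted P = 0.0154; with the block -4.13, edgeR adjusted P = 0.0217). It rests on few reads, at 0.0111%, 0.0298% and 0.00130% of the gene in the gastrocnemius and 0.00183%, 0% and 0% in the quadriceps.

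The 19 listed genes without a called bin were tested on 10 to 60 bins each in the gastrocnemius. Spag9, a scaffold of the JNK pathway and of motor proteins, came closest to a call. Its 39-base coding exon (bin 51) held 1.17%, 1.32% and 1.30% of the gene in WT gastrocnemius, 0.711%, 0.638% and 0.722% in HSA-LR mice and 1.32%, 1.28% and 1.11% in treated mice. The quadriceps values were 1.07%, 0.878% and 1.15%, then 0.517%, 0.546% and 0.529%, then 1.21%, 1.19% and 1.16%. In both muscles HSA-LR mice lay below all others with no overlap. edgeR gave log2 changes of -0.87 and -0.93 (adjusted P = 0.103 and 0.923), and the DEXSeq model called both (DESeq2 adjusted P = 1.54e-08 and 6.68e-08).

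Other genes of this set had a smallest adjusted P above 0.1 in both muscles. Arhgef7, an exchange factor for Rac and Cdc42, had a 1285-base noncoding bin (bin 10) at 0.492%, 0.551% and 0.494% in WT gastrocnemius, 0.189%, 0.262% and 0.269% in HSA-LR mice and 0.637%, 0.637% and 0.230% in treated mice (log2 change -1.10, edgeR adjusted P = 0.118). Treated mouse 3 lay with the HSA-LR mice there. The 39-base Smyd1 bin 11 was at 1.55%, 1.81% and 1.79% in WT and 2.42%, 2.32% and 2.33% in HSA-LR gastrocnemius, with adjusted P = 0.713 by edgeR and 4.55e-03 in the DEXSeq model (DESeq2), which called it in the quadriceps too (DESeq2 adjusted P = 1.07e-03). Best3, a chloride channel of the bestrophin family, had its coding bin 3 at 3.24%, 3.19% and 3.54% against 1.42%, 1.62% and 1.47% in the gastrocnemius (edgeR adjusted P = 1.0). With 10 tested bins in Best3, each bin is part of the average it is set against. The same holds for Trim55, another gene with few tested bins. Its bin 11 was called in the gastrocnemius with a log2 change of -1.27 (edgeR adjusted P = 3.92e-08), against -1.19 for Best3 bin 3. Best3 counts were low and uneven, at 8.46, 11.1 and 21.3 CPM in WT gastrocnemius. Why Best3 bin 3 was not called was not tested. Sorbs2, Ank2, Tmem63b, Git2 and Phactr4 had a smallest edgeR adjusted P of 1.0, 0.427, 0.832, 0.982 and 1.0 in the gastrocnemius and of 0.165, 1.0, 1.0, 1.0 and 0.262 in the quadriceps. The DEXSeq model called Ank2 bin 79, with 0.197%, 0.332% and 0.156% of the gene in WT gastrocnemius and 0.56%, 0.679% and 0.629% in HSA-LR mice (log2 change 1.48, DESeq2 adjusted P = 4.44e-03), and Sorbs2 bin 32 (log2 change 1.08, DESeq2 adjusted P = 0.0689). Capzb, Cttn, Fhod3, Flnc, Itga7, Kif13a, Numa1, Ppp1r12a, Clasp2 and Map4k4 had a smallest edgeR adjusted P of 1.0 in both muscles.

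Whole gene counts of the listed genes were tested next, since a share can shift with its gene. In HSA-LR against WT gastrocnemius, 7 of 36 genes were called (edgeR; 19.4%, against 15.5% of all 15625 genes), and in the quadriceps 10 (27.8%, against 20.3% of 15574). These shares lie near the background. The gastrocnemius count was 4 without HSA-LR mouse 1 and 14 without treated mouse 3, and the quadriceps count was 6 without WT mouse 2, WT mouse 3 or HSA-LR mouse 2 and 5 without HSA-LR mouse 1. Over all genes, the gastrocnemius fits without HSA-LR mouse 1 and without treated mouse 3 called 1370 and 3538, against 2427 with all mice. The quadriceps fit without HSA-LR mouse 1 called 2050, against 3169. Flnc, the filamin that crosslinks actin at the Z-disc, rose most in the quadriceps, from 922, 715 and 1200 CPM in WT mice to 2850, 2320 and 3160 CPM in HSA-LR mice, with 1440, 2090 and 1070 CPM in treated mice. The log2 change was 1.45 ± 0.258 (SE; edgeR adjusted P = 7.91e-03). In the gastrocnemius WT mouse 3 had 2770 CPM, within the range of HSA-LR mice (2600 to 3470 CPM), the other WT mice had 897 and 943 CPM, and the change was not called (log2 change 0.97 ± 0.411, edgeR adjusted P = 0.176). Without that mouse it was (log2 change 1.7, edgeR adjusted P = 5.8e-03), as was the change from HSA-LR to treated mice (-1.24, edgeR adjusted P = 0.016).

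Tmem63b, a mechanosensitive ion channel of the plasma membrane, fell in both muscles. Its quadriceps levels were 103, 104 and 129 CPM in WT, 70.9, 63.3 and 62.3 CPM in HSA-LR and 108, 112 and 90.2 CPM in treated mice. Log2 changes between HSA-LR and WT mice were -0.67 ± 0.147 in the gastrocnemius and -0.89 ± 0.107 in the quadriceps (SE; edgeR adjusted P = 0.0203 and 1.26e-03), and those between treated and HSA-LR mice 0.57 ± 0.147 and 0.81 ± 0.106 (edgeR adjusted P = 0.0597 and 4.64e-03). Capzb, the beta subunit of the actin capping protein, fell by 0.35 and 0.34 on the log2 scale (edgeR adjusted P = 0.0570 and 0.0486). Trim55 fell by 0.36 and 0.42 (edgeR adjusted P = 0.0116 and 0.0873), in addition to the change in its exon. With the largest bin of the gene in place of the sum, the Trim55 difference was -0.20 and -0.29 and not called (edgeR adjusted P = 0.125 and 0.199).

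Ank3, Macf1 and Fhod3 rose in both muscles. Ank3 went from 96.0, 103 and 106 CPM in WT to 189, 188 and 235 CPM in HSA-LR gastrocnemius (log2 change 0.93 ± 0.190, SE; edgeR adjusted P = 0.0156), and by 0.75 ± 0.176 in the quadriceps (edgeR adjusted P = 0.0231). Fhod3, a formin that assembles sarcomeric actin, rose by 0.48 ± 0.083 and 0.43 ± 0.099 (edgeR adjusted P = 7.76e-03 and 0.0214), and Macf1 by 0.51 ± 0.124 and 0.44 ± 0.147 (edgeR adjusted P = 0.0306 and 0.0799). Ank1 fell in the gastrocnemius only by the test (log2 change -0.42 ± 0.110, edgeR adjusted P = 0.0408), with -0.43 ± 0.153 in the quadriceps (edgeR adjusted P = 0.101). Itga7, the laminin receptor integrin of muscle, fell in the quadriceps (log2 change -0.47 ± 0.084, edgeR adjusted P = 7.78e-03), where Slain2 rose by 0.34 ± 0.1 and Dst fell by 0.36 ± 0.123 (edgeR adjusted P = 0.0550 and 0.0881). With the largest bin in place of the sum, Macf1 was no longer called in the gastrocnemius (log2 change 0.19, edgeR adjusted P = 0.351).

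Calls on several genes were lost without the WT mice whose libraries went against their labels, and without other mice too. Without WT mouse 2, the quadriceps changes of Capzb, Trim55, Macf1 and Dst were -0.34, -0.35, 0.48 and -0.27 and not called (edgeR adjusted P = 0.109, 0.214, 0.124 and 0.231). Without WT mouse 3, those of Capzb, Trim55, Slain2, Macf1 and Dst were -0.32, -0.42, 0.33, 0.49 and -0.36 and not called (edgeR adjusted P = 0.124, 0.173, 0.135, 0.12 and 0.171), while Sorbs2, which joins actin to adhesion sites, was (-0.52, edgeR adjusted P = 0.0536). Capzb lost its gastrocnemius call without WT mouse 2 (-0.37, edgeR adjusted P = 0.119). Each of the calls lost here was also lost without HSA-LR mouse 1 (edgeR adjusted P = 0.117 to 0.236), so the losses were not particular to WT mice 2 and 3. Without the gastrocnemius library of treated mouse 3, Arhgef7, Ppp1r12a, Opa1, Clasp1, Lrrfip2, Slain2 and Svil were called there in addition, by 0.19 to 0.33 (edgeR adjusted P = 0.012 to 0.0984).

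Between treated and HSA-LR mice, 7 gene counts were called in the gastrocnemius (edgeR; 19.4%, against 10% of all genes) and 4 in the quadriceps (11.1%, against 13.8%). The gastrocnemius genes were Fhod3, Macf1, Arhgef7, Opa1 and Ank3, which fell, and Capzb and Tmem63b, which rose. In the quadriceps Tmem63b, Dst, Clasp2 and Git2 rose. With the largest bin in place of the sum, Opa1, Macf1 and Ank3 were at -0.04, -0.3 and -0.49 in the gastrocnemius and Clasp2 and Git2 at 0.18 and 0.33 in the quadriceps, none of them called (edgeR adjusted P = 0.857, 0.159, 0.163, 0.347 and 0.113). Without WT mouse 2 the calls on Ank3, Opa1 and Git2 were lost (edgeR adjusted P = 0.14, 0.13 and 0.111), and without WT mouse 3 those on Ank3 and Git2 (edgeR adjusted P = 0.104 and 0.112). The calls on Ank3, Opa1 and Git2 were also lost with HSA-LR mouse 1, 2 or 3 left out. Of the 9 fits that left out a mouse, the gastrocnemius calls held in 2 for Ank3, 3 for Opa1 and 5 for Tmem63b. They held in 6 for Capzb, 7 for Arhgef7, 8 for Macf1 and 9 for Fhod3. The quadriceps calls held in 0 for Git2, 4 for Clasp2, and 9 for Tmem63b and for Dst. Sorbs2 was called in the quadriceps without WT mouse 2 or 3 (log2 change 0.53 in each, edgeR adjusted P = 0.086 and 0.0441), and Dst in the gastrocnemius without treated mouse 3 (0.34, edgeR adjusted P = 0.0831). With HSA-LR mice 1, 2 and 3 left out in turn the gastrocnemius count was 2, 2 and 3, and the quadriceps count was 2 without HSA-LR mouse 1, HSA-LR mouse 2 or treated mouse 1. Over all genes these gastrocnemius counts were 428, 492 and 795, against 1566 with all mice. Between treated and WT mice 0 genes were called by edgeR in either muscle (1.04% and 1.41% of all genes). At an unadjusted P under 0.05 there were 3 of 36 genes in the gastrocnemius and 8 of 36 in the quadriceps. Over all genes these were 1641 of 15625 and 1947 of 15574. DESeq2 called 1 gene in the gastrocnemius and 3 in the quadriceps, against 529 and 748 over all genes.

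**Figure D5:**
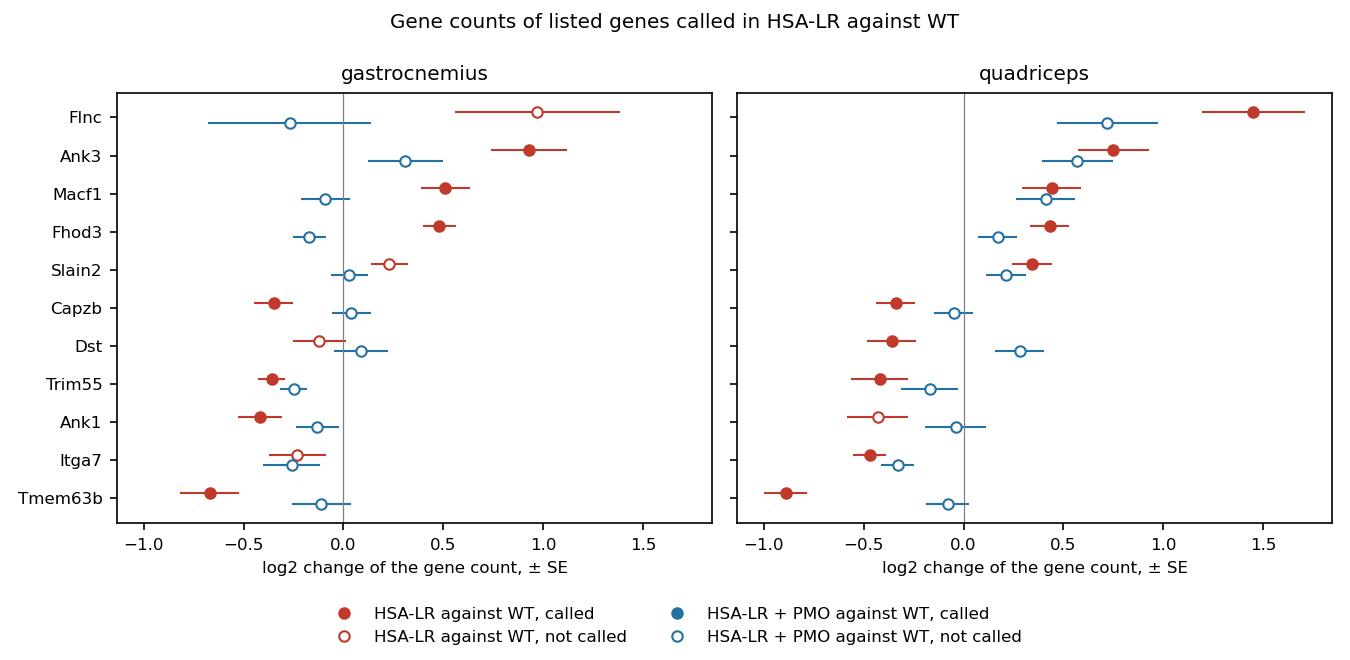
Log2 change of the whole gene count (x axis, ± SE) against WT mice for the listed genes called in HSA-LR mice, in the gastrocnemius (left) and the quadriceps (right); filled points were called at an adjusted P under 0.1. Flnc, Ank3, Macf1, Fhod3 and Slain2 lie above 0 in HSA-LR mice, the other genes below, and no point of treated mice is filled.

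A list of 64 paralogs and partners of the listed genes was followed for comparison, 57 of which had tested bins. In the gastrocnemius, 38 of 1539 bins in 11 genes were called between HSA-LR and WT mice (2.47%), 36 used more and 2 less, and in the quadriceps 9 of 1537 bins in 5 genes (0.586%), 7 used more and 2 less. The 5 genes were Clip1, Fhod1, Tln1, Synm and Pak1. Clip1, a microtubule plus-end protein, had bin 13 used more by 2.39 and 2.49 on the log2 scale in the gastrocnemius and the quadriceps (edgeR adjusted P = 9.96e-12 and 9.82e-15). Tln1, the talin that couples integrins to actin, had bin 72 used more by 2.46 in both (edgeR adjusted P = 1.51e-23 and 1.54e-18). Both bins fell between HSA-LR and treated mice, with log2 changes of -2.37 and -2.08 in Clip1 and of -1.79 and -2.21 in Tln1 (edgeR adjusted P = 3.4e-11, 5.00e-11, 1.57e-12 and 1.45e-15).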

How the data were processed

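RNA of the gastrocnemius and quadriceps of 9 mice was sequenced as poly(A)-selected, stranded libraries. The deposited files hold the authors' counts, not normalized, of read pairs over exon bins, in the format of the DEXSeq counting step, with 1 file per library and replicates not pooled. The submitters' processing notes name CASAVA, HISAT, featureCounts 1.5.0 and GRCm38, without their roles, and the annotation release was not given in the sources used here. The deposited counts were used as they are, after removal of the 2.82% to 4.14% of counts per library that name no gene.

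Bins were filtered with filterByExpr (minimum count 10, minimum total 15), scaled by TMM and fitted per muscle over the 9 libraries with edgeR 4.0.16 (glmQLFit, diffSpliceDGE; glmQLFTest for gene counts) in R 4.3.3, with Benjamini-Hochberg adjustment over all features and a threshold of 0.1. Muscles were compared in a fit of all 18 libraries. Alternatives used limma 3.58.1 (voom), the DEXSeq model in DESeq2 1.42.0, other filters, coverage as a covariate, a replicate block and leaving out each mouse. The scripts were tested on simulated data. Symbols and exons came from GENCODE M21, and 6 listed genes (Ank3, Fhod3, Itga7, Kif13a, Lrrfip2, Ppp1r12a) differ there in version or bin number and have no positions.

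The lead bin of a gene was its called bin with the smallest P. Lead bins, a bin of the same gene in the other direction, each called bin of the comparisons of treated with WT mice and of muscles (up to 5), and called genes (up to 10) were named, and bins outside that rule were named after their values were seen. The members, the lists and these rules were chosen with earlier results of these data known.

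A mouse number marks both muscles of that mouse in the labels. Deviations from the group means correlated within mice (median r 0.307, from 0.164 to 0.709 over 9 pairs and 15263 genes) against -0.141 between mice. Deviations from a mean of 3 mice sum to 0, so the value below 0 follows from the one above 0 and is no separate result. Mice of different groups share only a number. Nothing states whether mice were littermates, and P values measure the spread between these mice.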

Additional observations from a re-analysis of the deposited data

Results flagged for a closer look

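With the mouse as a block, the difference between the muscles in the change from HSA-LR to treated mice was called for 3 bins. It was 2.54 on the log2 scale for Dst bin 86 (edgeR adjusted P = 0.062), 2.34 for Dst bin 87 (edgeR adjusted P = 4.89e-03) and 2.23 for Macf1 bin 57 (edgeR adjusted P = 0.072). In each of them treated mice were below HSA-LR mice in the gastrocnemius and above them in the quadriceps on average. Without the block the differences were 2.25, 1.92 and 1.89, each with an edgeR adjusted P of 1.0. In the quadriceps, the shares of these bins were highest in the libraries of highest 5' to 3' coverage, as given above. In the gastrocnemius, the library of treated mouse 3 had the lowest coverage (-2.23), but not the lowest share of Dst bin 87. With coverage as a covariate in a fit of each muscle, the change from HSA-LR to treated mice was -0.86 in the gastrocnemius and -0.76 in the quadriceps for Dst bin 87 (edgeR adjusted P = 0.138 and 1.0), and -0.38 in both muscles for Macf1 bin 57 (edgeR adjusted P = 1.0), against 1.03 and 1.17 in the quadriceps without the covariate. Coverage in the quadriceps was -1.72, -1.71 and -1.77 in treated mice and -1.84, -1.75 and -1.82 in HSA-LR mice. Coverage and treatment can thus not be fully told apart in that fit. The difference between the muscles itself was not refitted with coverage, and the part of coverage in it was not tested.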

How the results depend on the processing

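Of the values for lead bins under the alternatives, 643 kept their direction and side of the threshold, 40 were no longer called and 6 became called. The 12 that changed sign were quadriceps values near 0, none of them called: Slain2 bin 2 (0.07 without HSA-LR mouse 3, and -0.49 to 0.07 over the mice left out), Svil bin 9 (-0.02 without WT mouse 1, range -0.02 to 0.71), Dst bin 87 (-0.38, -0.26 and -0.93 without WT mouse 1, WT mouse 3 or HSA-LR mouse 2, range -0.93 to 1.56) and Macf1 bin 57 (1.53, 0.41 and 0.17 without WT mouse 2, HSA-LR mouse 1 or HSA-LR mouse 3, range -1.1 to 1.53, and 0.26 with voom, 0.17 in the DEXSeq model, 0.0 with a minimum count of 30, and 0.03 with the replicate block).

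Counts of called bins changed by over 1.5 times as follows, and the cause was not tested. For HSA-LR against WT mice, the DEXSeq model gave 91 bins in the gastrocnemius and 32 in the quadriceps, voom gave 17 in the quadriceps, and the coverage covariate with the low-coverage library left out gave 21 in the gastrocnemius. Over all genes these fits gave 2397, 1360, 1106 and 570 bins in the same order. The fits used above gave 1414 in the gastrocnemius and 491 in the quadriceps. For treated against HSA-LR mice, the DEXSeq model gave 38 and 21, and an adjusted P under 0.05 gave 13 in the gastrocnemius. Over all genes that model gave 1009 and 864 bins, against 533 and 291 in the fits used above. For treated against WT mice, the coverage covariate gave 1 bin in the gastrocnemius, and a minimum count of 3 or no filter gave 1 in the quadriceps. Voom gave 1 bin for the difference between muscles in the change with treatment and 0 between muscles of WT mice. For gene counts, a fit of the 2 groups compared gave 13 in HSA-LR against WT gastrocnemius, and DESeq2 gave 8 for treated against HSA-LR quadriceps, with 1 and 3 for treated against WT mice. Over all genes these fits called 3376, 3155, 529 and 748 genes in the same order. The median return of the lead bins was 85.9% in the gastrocnemius and 103% in the quadriceps, where it includes bins that were not called and whose WT and HSA-LR means barely differed, so that their return has no meaning. Over called bins it was 71.4% (58 gastrocnemius bins) and 105% (11 quadriceps bins).

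Leaving out each mouse in turn gave 24 to 76 and 8 to 13 called bins for HSA-LR against WT mice (gastrocnemius, then quadriceps), 10 to 32 and 7 to 14 for treated against HSA-LR mice, 0 to 2 and 0 to 6 for treated against WT mice, 0 to 2 for each difference between muscles and 0 to 3 between muscles of WT mice. Gene counts gave 4 to 14 and 5 to 12, then 2 to 8 and 2 to 5, and 0 for treated against WT mice. The median return ran from 81.8% to 91.1%.

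With the replicate number as a block, 52 of the 58 gastrocnemius bins and 11 of 11 quadriceps bins were still called. The block gave 13 bins and 3 genes for treated against HSA-LR gastrocnemius, 2 bins for treated against WT quadriceps, and, with the mouse as the block, 3 bins for the difference between muscles in the change with treatment and 1 between muscles of WT mice. Across groups the same number gave correlations of -0.409 to 0.213 in the gastrocnemius (1 of 9 libraries correlated best with its own number) and of -0.311 to 0.376 in the quadriceps (3 of 9), so the numbers were not taken as pairs.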
